A study of Mus musculus with 6 samples.

Results

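Timd4, Marco, Stab2, Fcgr4 and Vsig4 encode surface receptors with which macrophages and related cells take up particles. They were chosen by name, 5 genes out of the 714 in the deposited table. Their transcripts were counted in 6 RNA sequencing libraries made from macrophages that had been grown from mouse bone marrow on a C57BL/6 background. Wild-type cells gave 3 of the libraries. The other 3 are labelled Senp8+/-, heterozygous for Senp8, whose product is a protease for the ubiquitin-like protein NEDD8. Marrow of both genotypes was grown for 6 days with 10 ng/ml GM-CSF. Cells of both genotypes were then given streptavidin beads loaded with 50 nM biotinylated CD47, a surface protein that restrains engulfment through its receptor SIRPα, and RNA was taken 24 h after this stimulation. The titles call the Senp8+/- libraries KO, while the genotype label names a heterozygote. Senp8 itself was not analysed here, so its level could not check the labels. There was no group without CD47, so every value describes exposed cells. The age of the animals, how the Senp8 allele was altered, and whether libraries of the same genotype were separate animals or cultures are not given in the sources. The p-values therefore rest on the spread between these libraries, and that spread may be technical.

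Engulfment starts when a receptor meets a label on the particle. Phosphatidylserine on the outer face of a dying cell is read by TIM-4, the product of Timd4, and by stabilin-2, the product of Stab2. Scavenger receptors bind many polyanionic ligands. MARCO, the product of Marco, is a trimeric collagen-like receptor of this kind for bacteria and inert particles, and stabilin-2 clears hyaluronan and other matrix fragments. Antibody-coated particles are bound by Fc receptors such as FcγRIV, the product of Fcgr4, which signals through the shared γ chain. Particles coated with fragments of the complement protein C3 are bound by CRIg, the product of Vsig4. Timd4, Marco and Vsig4 are known for high levels in macrophages resident in tissues, and Stab2 for the endothelium of sinusoids in liver, spleen and bone marrow.

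Every gene in the table had been selected by the authors for a p under 0.05 and a difference of 2-fold or more, so that the 5 receptors differ is a property of the table and no finding. The values are normalised read counts, in which each library's reads were divided by its own size factor. These factors ran from 0.933 to 1.14. Reads over the listed genes came to between 205957 and 217286 for Senp8+/- and between 439026 and 491156 for wild type. Only selected genes enter these sums, and the total depths are unknown here. Whole reads per gene could be recovered and are given where they are few. The sample labels used here give no sex. Ddx3y, Eif2s3y and Uty, genes of the Y chromosome, had mean normalised counts of 910, 1197 and 300 in Senp8+/-. In wild type they had 328, 512 and 145. Whether the genotypes differed in the sex of the animals was not tested. Of 15 general macrophage markers, C1qa and C1qc were in the table and the other 13, Adgre1 and Csf1r among them, were not analysed here. The summed normalised counts of C1qa and C1qc lay between 8169 and 11604 in Senp8+/- and between 10922 and 24342 in wild type.

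The gene models were simple for 4 of the 5 receptors. Positions are those of the deposited table and the gene lengths equal those of GENCODE M21 on GRCm38. Timd4 (ENSMUSG00000055546) lies on the plus strand of chromosome 11 from 46810800 to 46844332, 31222 bases from Havcr1, another gene of the TIM family. Marco (ENSMUSG00000026390) lies on the minus strand of chromosome 1 from 120474538 to 120505024. Fcgr4 (ENSMUSG00000059089) lies on the plus strand of chromosome 1 from 171018920 to 171029761, with Fcgr3 21413 bases and Fcgr2b 42373 bases away. Vsig4 (ENSMUSG00000044206) lies on the minus strand of chromosome X from 96247203 to 96293438. No exon of these 4 genes shares a base with an exon of another annotated gene. Stab2 (ENSMUSG00000035459), on the minus strand of chromosome 10 from 86841198 to 87008025, is much larger, with 69 exons and a coding sequence of 2559 codons in its longest coding transcript. It overlaps 5 annotated genes on the opposite strand, and 141 of its 8757 exon bases are shared with their exons. The sources do not say whether the libraries keep strand, so reads from those bases cannot be assigned to a gene.

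The 250 bases before the annotated start are shown for the 4 receptors that the authors' test called lower, to let their promoters be compared. They come from RefSeq on GRCm38.p6, where all 5 genes were matched, and read 5′ to 3′ on the gene's own strand, ending at the base before the start. Capitals mark matches, on either strand, to 7 motifs: GAGGAA (core of the macrophage factor PU.1), TGANTCA (AP-1), TTCNNNGAA (STAT factors), the interferon-stimulated response element (GAAA, any 2 bases, GAAA), a loose NF-kB motif (GGG, any 5 bases, CC), CACGTG (E-box) and AGGTCA (nuclear receptor half-site). Overlapping matches run together in capitals.
Timd4, chr11:46810549-46810798, plus strand: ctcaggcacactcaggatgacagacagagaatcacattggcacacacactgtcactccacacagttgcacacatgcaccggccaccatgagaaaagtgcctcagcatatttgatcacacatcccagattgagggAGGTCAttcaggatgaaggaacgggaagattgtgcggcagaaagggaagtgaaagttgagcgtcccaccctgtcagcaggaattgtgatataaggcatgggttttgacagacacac
Marco, chr1:120505025-120505274, minus strand: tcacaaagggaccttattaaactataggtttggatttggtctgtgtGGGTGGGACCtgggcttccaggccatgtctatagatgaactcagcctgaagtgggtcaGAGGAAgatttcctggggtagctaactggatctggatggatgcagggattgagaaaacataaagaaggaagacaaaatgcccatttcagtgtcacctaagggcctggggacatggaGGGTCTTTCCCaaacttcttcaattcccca
Fcgr4, chr1:171018676-171018925, plus strand: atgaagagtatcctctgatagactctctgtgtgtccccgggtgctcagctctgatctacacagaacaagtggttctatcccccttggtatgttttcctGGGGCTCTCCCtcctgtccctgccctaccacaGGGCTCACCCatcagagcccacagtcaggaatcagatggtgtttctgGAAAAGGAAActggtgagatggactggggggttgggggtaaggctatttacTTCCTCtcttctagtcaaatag
Vsig4, chrX:96293439-96293688, minus strand: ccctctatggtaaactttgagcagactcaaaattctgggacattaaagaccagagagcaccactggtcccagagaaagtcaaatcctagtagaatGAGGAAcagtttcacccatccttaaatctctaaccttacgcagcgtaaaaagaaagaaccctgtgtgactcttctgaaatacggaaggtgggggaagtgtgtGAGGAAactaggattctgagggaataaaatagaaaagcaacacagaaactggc

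The 4 promoters shared some motifs and differed in others. GAGGAA stood at positions -146 to -141 from the start of Marco and at -22 to -17 of Fcgr4, there on the other strand. Vsig4 held it at both -155 to -150 and -53 to -48. Timd4 did not hold it, and its single match was AGGTCA at -116 to -111, a motif that Stab2 also held. The interferon motif matched in Fcgr4 alone of the 5 genes, at -73 to -64. The loose NF-kB motif matched in Marco and Fcgr4, and also in Stab2, which is not printed. TGANTCA, TTCNNNGAA and CACGTG matched in 0 of the 5. Among 32851 promoters of the same length, 23.3% held GAGGAA, 45.8% the loose NF-kB motif, 14.0% AGGTCA and 2.98% the interferon motif. TGANTCA, TTCNNNGAA and CACGTG were held by 6.75%, 7.02% and 6.02% of them. Among 510 promoters of listed genes that lay lower, 28.2% held GAGGAA, 53.5% the loose NF-kB motif, 11.8% AGGTCA and 7.06% the interferon motif. These matches describe letters in a window and do not show binding.

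The design compares heterozygous with wild-type macrophages, all exposed to CD47. All 5 receptors lay lower in Senp8+/-, from 26.4-fold for Timd4 to 2.45-fold for Stab2. Timd4, Marco, Fcgr4 and Vsig4, 4 of the 5, have an adjusted p under 0.05 in the authors' deposited data and are said here to have fallen, or to be called. Stab2 does not. Of the 14694 genes in the authors' correction 3.87% were listed as lower and 1.65% called lower, and of the 714 listed genes 33.9% were called lower. Because the receptors were picked from this table with its results known, nothing is read from their count. limma, a linear model with moderated variances, was fitted to log2(value + 1) of all listed genes, and with Benjamini-Hochberg adjustment over 14694 genes it placed 3 of the 5 past 0.05, Timd4, Marco and Fcgr4, against 20.9% of listed genes in that direction. The normalised counts of the genotypes did not overlap for 5 of 5. The same held, with Senp8+/- the lower, for 70.6% of all listed genes, or 88.6% of the 569 that lay lower. For a single gene, an exact two-sided permutation of 3 against 3 libraries cannot go below p = 0.1, and each of the 5 gave that value. The median log2 fold change in the authors' deposited table was -1.75 over the receptors and -1.72 over all 569 listed genes that lay lower. In RNA from whole cultures, fewer cells of a type and less RNA per cell cannot be told apart.

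**Figure D1:**
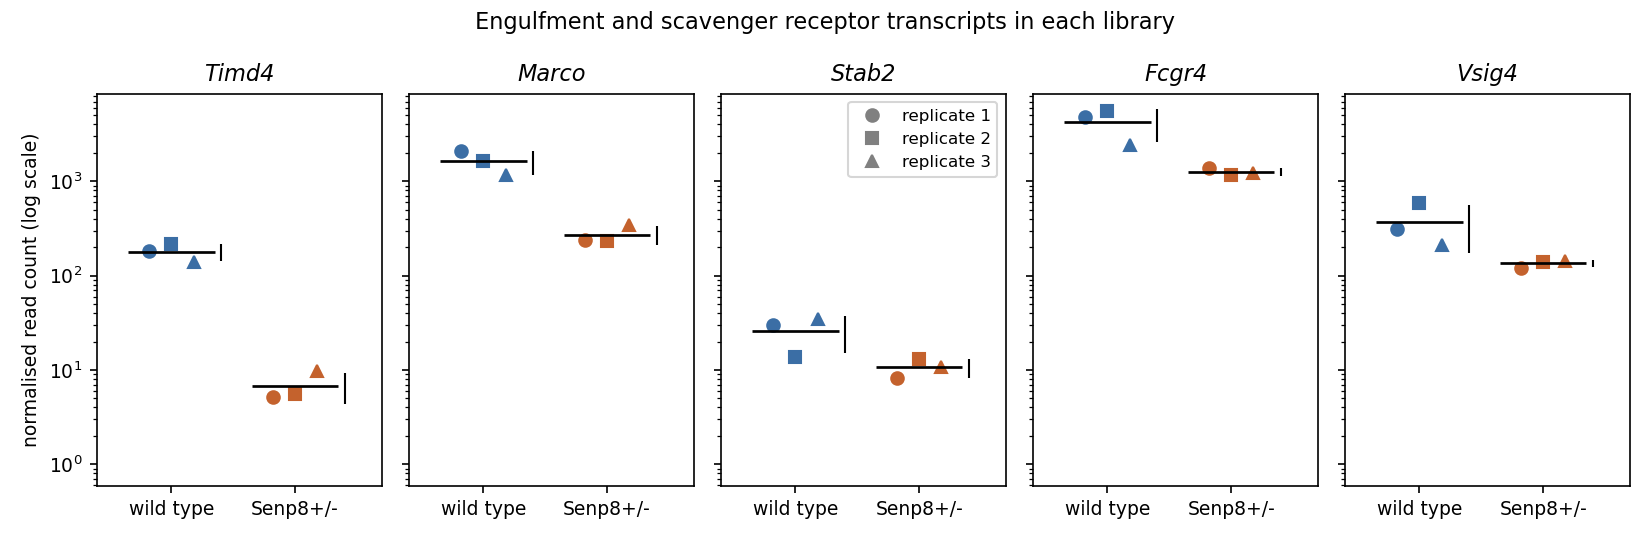
Normalised read count (log scale) of each receptor in the 3 wild-type (blue) and 3 Senp8+/- (orange) libraries, with symbols for replicates, horizontal lines for means and vertical bars for 1 SD. Timd4 is separated most, while the lowest wild-type library and the highest Senp8+/- library of Stab2 stand at 13.7 and 13.0.

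Timd4 was nearly lost from the Senp8+/- libraries. Its normalised counts were 182, 215 and 141 in wild-type replicates 1, 2 and 3 and 5.15, 5.58 and 9.64 in Senp8+/- replicates 1, 2 and 3. Every wild-type library stood far above every Senp8+/- library, and the closest 2 differed 14.6-fold. In whole reads, the Senp8+/- libraries held 5, 6 and 9, or 20 together, against 549 in the 3 wild-type libraries. The exact 95% Poisson limits of the 9 reads were 4.12 and 17.1, and the lowest wild-type library held 161 reads. Such limits cover counting error only. The means were 179 ± 37.4 (SD, n = 3) in wild type and 6.79 ± 2.48 (SD, n = 3) in Senp8+/-. The Senp8+/- level was 3.78% of the wild-type level, and the spread among the Senp8+/- libraries was 0.947 times what counting alone gives. The limma difference was -4.56 ± 0.38 (SE) on the log2 scale (adjusted p = 1.54e-04). By the log2 fold change in the authors' deposited table it ranked 14 among the 569 listed genes that lay lower, and by their p it ranked 3 among all 714.

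Marco, the collagen-like scavenger receptor, fell 6.02-fold. Its normalised counts were 2089, 1646 and 1159 in wild-type replicates 1, 2 and 3 and 239, 232 and 342 in Senp8+/- replicates 1, 2 and 3. The highest Senp8+/- library and the lowest wild-type library were both replicate 3 and still differed 3.39-fold. The means were 1631 ± 465 in wild type and 271 ± 61.6 in Senp8+/- (SD, n = 3 each). limma gave a log2 difference of -2.57 ± 0.31 (SE; adjusted p = 0.00128), which was 0.0912 without wild-type replicate 1, where 2 wild-type libraries remained. Marco thus kept 16.6% of its wild-type level, a share between those of Timd4 and Fcgr4.

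Fcgr4, a receptor for IgG-coated particles, was the most abundant of the 5 in both genotypes. Its normalised counts were 4818, 5513 and 2431 in wild-type replicates 1, 2 and 3 and 1393, 1170 and 1218 in Senp8+/- replicates 1, 2 and 3. The Senp8+/- libraries lay close together, with a coefficient of variation of 9.29%, against 38.0% among the wild-type libraries. Wild-type replicate 3 stood at less than the level of either other wild-type library, and the fall of 3.38-fold came to 4.10-fold without it. The means were 4254 ± 1616 in wild type and 1260 ± 117 in Senp8+/- (SD, n = 3 each). The wild-type SD was 25.1 times what counting alone gives, so depth does not limit this value. The limma difference was -1.67 ± 0.31 (SE; adjusted p = 0.0211). It lost that call when any library other than wild-type replicate 3 was left out, with adjusted p from 0.0860 to 0.325, and the edgeR quasi-likelihood test on recovered reads gave 0.00557. With any of those libraries left out, limma called between 7 and 96 of all listed genes lower, against 149 with all libraries. Fcgr3 and Fcgr2b, its neighbours on the chromosome, and Fcgr1 are not among the listed genes used here.

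Vsig4, the receptor for C3 fragments, fell 2.73-fold by the authors' test and missed the limma threshold. Its normalised counts were 310, 586 and 209 in wild-type replicates 1, 2 and 3 and 120, 140 and 144 in Senp8+/- replicates 1, 2 and 3. Wild-type replicate 2 was 2.81 times wild-type replicate 3, while the Senp8+/- libraries differed by no more than 1.19-fold. The means were 368 ± 195 in wild type and 135 ± 12.6 in Senp8+/- (SD, n = 3 each). Leaving out wild-type replicate 2, the highest, reduced the fall to 1.92-fold. limma gave -1.32 ± 0.38 (SE; adjusted p = 0.157), and 0.0464 without wild-type replicate 3. The authors' adjusted p was 0.0168, and that of edgeR on recovered reads 0.0976. The lowest wild-type library stood 1.45 times above the highest Senp8+/- library.

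Stab2 was scarce and did not pass either test. Its normalised counts were 29.7, 13.7 and 34.9 in wild-type replicates 1, 2 and 3 and 8.23, 13.0 and 10.7 in Senp8+/- replicates 1, 2 and 3. Wild-type replicates 1 and 3 stood above all Senp8+/- libraries, but wild-type replicate 2 exceeded Senp8+/- replicate 2 by 1.05-fold only. In whole reads the order of these 2 was the opposite, 13 in wild-type replicate 2 and 14 in Senp8+/- replicate 2, so the genotypes overlapped before scaling. The exact 95% Poisson limits of the 13 reads, 6.92 and 22.2, span the Senp8+/- counts of 8, 14 and 10. The means were 26.1 ± 11.1 in wild type and 10.7 ± 2.39 in Senp8+/- (SD, n = 3 each). The adjusted p was 0.359 in the authors' deposited table and 0.515 with limma, at -1.14 ± 0.44 (SE). At this depth a difference of Stab2 between the genotypes was not shown.

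**Figure D2:**
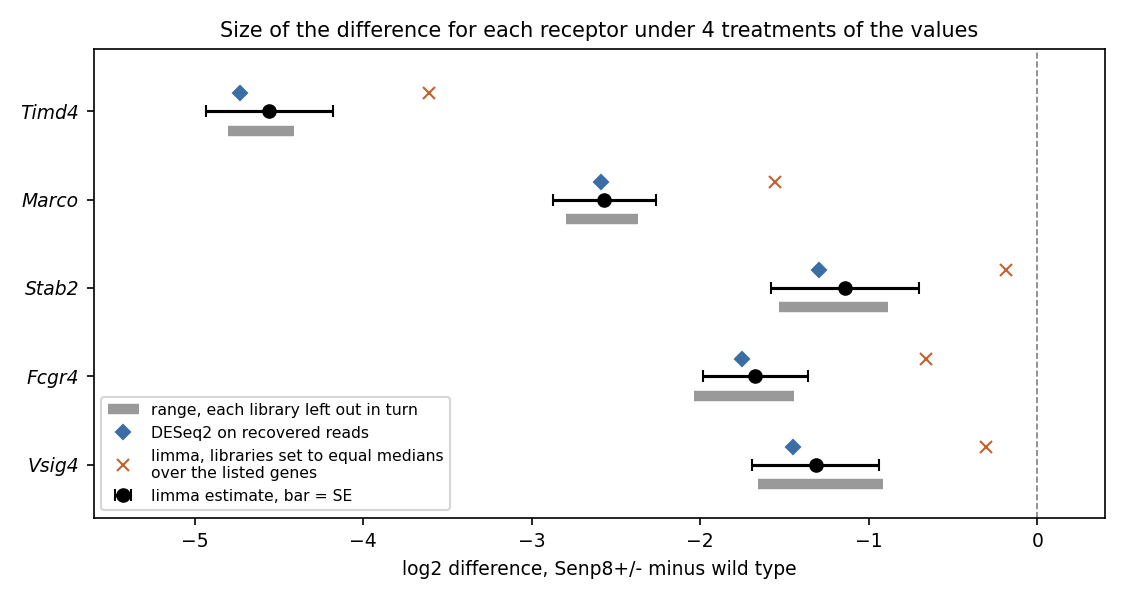
Log2 difference of each receptor, Senp8+/- minus wild type, by limma with its SE (black), by DESeq2 on recovered reads (blue), by limma after scaling all libraries to 1 common median of listed genes (crosses), and the range when each library was left out in turn (grey bars). Timd4 lies at -4.56 and Marco at -2.57, and the other 3 between -1.67 and -1.14.

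The size of the difference varied among the receptors. For each of 10 pairs, the log2 ratio of the 2 genes within a library was compared between genotypes, so that the scaling of the library drops out apart from the pseudocount. Timd4 minus Marco gave -1.99 ± 0.20 (SE, n = 3 libraries per genotype), the log2 ratio of the 2 genes being -3.51, -2.93 and -3.03 in wild-type replicates 1, 2 and 3 and -5.29, -5.14 and -5.01 in Senp8+/- replicates 1, 2 and 3. Timd4 thus lay further below Marco in each Senp8+/- library than in any wild-type library. Timd4 minus Stab2, Fcgr4 and Vsig4 gave -3.42 ± 0.62, -2.88 ± 0.35 and -3.24 ± 0.33. Marco minus Fcgr4 gave -0.89 ± 0.29 and Marco minus Vsig4 -1.25 ± 0.41. In these pairs and in Marco against Stab2, 7 in all, the genotypes did not overlap, and each reached the smallest exact two-sided permutation p that 3 against 3 allow, 0.1 (0.143 adjusted over 10 pairs). The exact test therefore cannot place any of them under 0.05 at this number of libraries. The remaining 3 pairs, among Stab2, Fcgr4 and Vsig4, overlapped. Fcgr4 minus Vsig4 came to -0.36 ± 0.26 (exact permutation p = 0.2), and Stab2 minus Fcgr4 to 0.53 ± 0.75 (exact permutation p = 0.6), which does not show that they fell alike.

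The receptors kept 1 order by level per kilobase of gene model in both genotypes. In wild type it was Fcgr4 with 3387 ± 1287 normalised counts per kb, Marco with 847 ± 242, Vsig4 with 248 ± 131, Timd4 with 82.6 ± 17.2 and Stab2 with 2.98 ± 1.26 (SD, n = 3). In Senp8+/- Fcgr4 stood at 1003 ± 93.2, Marco at 141 ± 32.0, Vsig4 at 90.8 ± 8.46, Timd4 at 3.12 ± 1.14 and Stab2 at 1.22 ± 0.274. No 2 neighbours in this order overlapped within a genotype. The steps between them differed, and by ratio Timd4 was nearest to Vsig4 in wild type and to Stab2 in Senp8+/-.

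Libraries of 1 genotype also differed from each other. Wild-type replicate 3 was the lowest wild-type library for Timd4, Marco, Fcgr4 and Vsig4 and the highest for Stab2. Wild-type replicate 2 was the highest for Timd4, Fcgr4 and Vsig4 and the lowest for Stab2. Among the 242 called genes that fell, wild-type replicate 3 was the lowest wild-type library for 52.1%, so this order is common in the table. C1qa and C1qc, which encode chains of the opsonin C1q, followed it. C1qa stood at 9880, 8733 and 4423 in wild-type replicates 1, 2 and 3 and at 3119, 3146 and 4698 in Senp8+/-, and wild-type replicate 3 lay inside the Senp8+/- range. Without wild-type replicate 3 the falls of Timd4, Marco, Fcgr4 and Vsig4 came to 29.3-, 6.90-, 4.10- and 3.32-fold, and the Stab2 ratio to 2.04-fold. Whether this library differed in its cells or in its handling was not tested.

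**Figure D3:**
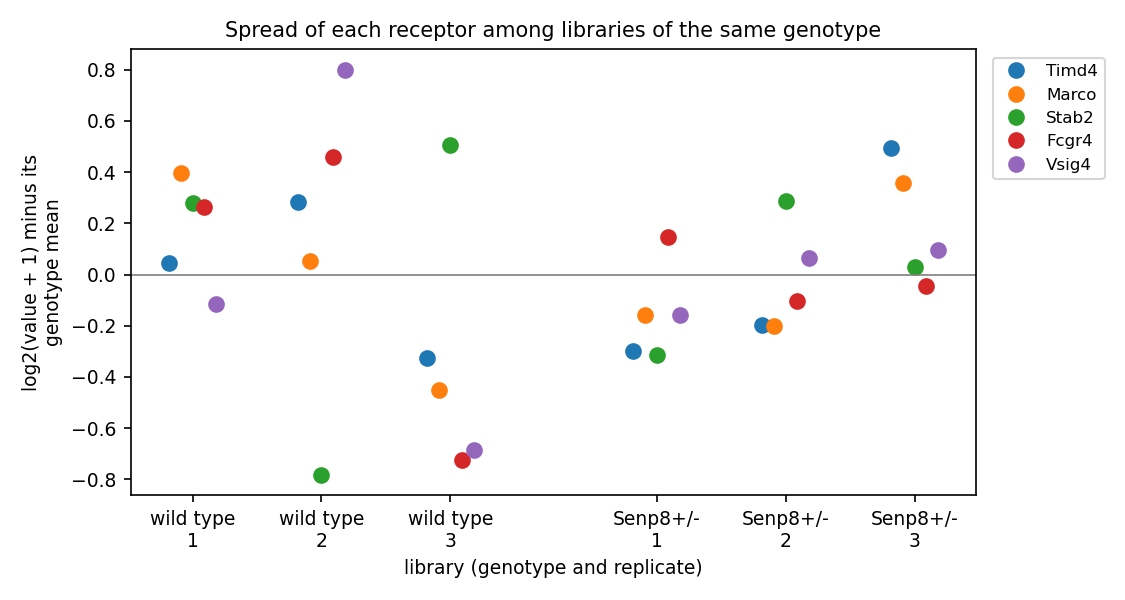
Deviation of log2(value + 1) from the mean of the genotype (vertical axis, log2 units) for the 5 receptors in each library (horizontal axis). In wild-type replicate 3 Timd4, Marco, Fcgr4 and Vsig4 lie below 0 and Stab2 above it, and in wild-type replicate 2 the signs are the opposite.

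For each receptor the 2 listed genes with the most similar pattern were found among 327 protein-coding listed genes with a mean of at least 26.8. Likeness was the mean absolute difference, over the 6 libraries, between 2 genes' log2(value + 1), each centred on its mean. Since all genes were selected on the same contrast, this is a description. The closest to Timd4 were Ly6i (0.353) and the chemokine gene Cxcl9 (0.424), which were farther from it than the nearest genes of the other 4 receptors were from theirs. Ly6i stood at 406, 420 and 190 in wild-type replicates 1, 2 and 3 and at 19.6, 16.7 and 28.9 in Senp8+/-. Marco lay nearest to H2-Q7 (0.171), a non-classical MHC class I gene, and Cfb (0.176), which encodes complement factor B. Stab2 lay nearest to the guanylate-binding protein gene Gbp9 (0.133) and Pkd1l2 (0.201), neither of them called. Fcgr4 lay nearest to Aif1 (0.108), a macrophage cytoskeletal protein gene, and to the MHC class II chain gene H2-Eb1 (0.123). Vsig4 lay nearest to Ms4a8a (0.139) and to Cd86 (0.147), which encodes a costimulatory ligand for T cells. Among the receptors themselves, Fcgr4 and Vsig4 were closest (0.275) and Timd4 and Stab2 farthest apart (1.71). Ly6i and H2-Q7 have close copies nearby, and their reads may have been divided between the copies.

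Other genes of the same ligand systems were followed with fixed lists. For comparison, of all 714 listed genes 569 lay lower, and 33.9% were called lower by the authors' test and 20.9% by limma. On the phosphatidylserine side, 4 of 26 genes were in the table, all lower, and 3 had fallen by the authors' test and 2 by limma. Besides Timd4 these were Cd300lf, a lipid-binding receptor with an inhibitory tail, and Thbs1, a secreted bridge between dying cells and phagocytes that also binds CD47. Cd300lf stood at 2338 ± 490 in wild type and 1080 ± 132 in Senp8+/- and Thbs1 at 2267 ± 1291 and 590 ± 178 (SD, n = 3 each). limma gave Cd300lf an adjusted p of 0.0687. Both had wild-type replicate 3 as their highest library, unlike Timd4. The tyrosine kinase receptors Mertk, Axl and Tyro3, the integrin bridge Mfge8 and the stabilin gene Stab1 are not among the listed genes used here.

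The scavenger receptor list was the 1 list of the 5 ligand and machinery lists with a gene that rose. Of its 26 genes 4 were in the table, and 2 fell and 1 rose by the authors' test, while limma placed the 2 that fell past its threshold. Cd5l, a secreted scavenger protein of tissue macrophages, fell from 2257 ± 468 to 544 ± 41.0, and Marco was the other that fell. Olr1, the receptor LOX-1 for oxidised lipoprotein, rose 2.10-fold, as 1 of the 7.42% of listed genes called higher. Its normalised counts were 64.4, 80.2 and 104 in wild-type replicates 1, 2 and 3 and 175, 172 and 175 in Senp8+/- replicates 1, 2 and 3. All 3 Senp8+/- libraries stood above all wild-type libraries. limma gave Olr1 an adjusted p of 0.170.

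Of 19 genes for IgG Fc receptors and their signalling, 3 were in the table, and 2 fell by the authors' test and 1, Fcgr4, by limma. Fcgrt, the neonatal Fc receptor that recycles IgG inside cells and is not a phagocytic receptor, fell from 550.5 ± 196 to 229 ± 12.6 by the authors' test (limma adjusted p = 0.147). Fcrl1, an Fc receptor-like gene of B cells, stood at 44.3 ± 7.54 in wild type and 18.5 ± 1.60 in Senp8+/- and was not called. The shared γ chain gene Fcer1g and the kinase gene Syk are not among the listed genes used here.

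Of the 5 ligand and machinery lists, the C3 list had the most genes in the table. Of its 21 receptors and opsonins 7 were there, all lower, and 5 fell by the authors' test and 3 by limma, so that the receptor Vsig4 and its opsonin source C3 were both lower. C3 fell 5.76-fold, from 4528 ± 1435 to 786 ± 107, and C4b 5.11-fold, from 802 ± 312 to 157 ± 34.5. Cfb, which forms the convertase that cleaves C3, fell from 120 ± 21.0 to 17.6 ± 6.70. Cd55, which protects the cell's own surface by taking convertases apart, fell from 47.9 ± 8.17 to 14.8 ± 6.54 by the authors' test (limma adjusted p = 0.0685). C1qa and C1qc were not called, and C1qc turned sign, to 0.050 on the log2 scale, when all libraries were scaled to 1 common median. The other C3 fragment receptors, built from Itgam or Itgax with Itgb2, are not among the listed genes used here. Of 26 genes of the engulfment machinery downstream of receptors, 1 was in the table and 0 were called by the authors' test, limma, edgeR or DESeq2, while that 1 gene had an unadjusted p under 0.05 in each. Elmo3, a partner of a Rac activator, stood at 36.0 ± 10.2 in wild type and 16.6 ± 4.24 in Senp8+/-. For genes outside the table it cannot be told apart whether they missed the authors' p or fold limit, were not tested, or were not used here.

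**Figure D4:**
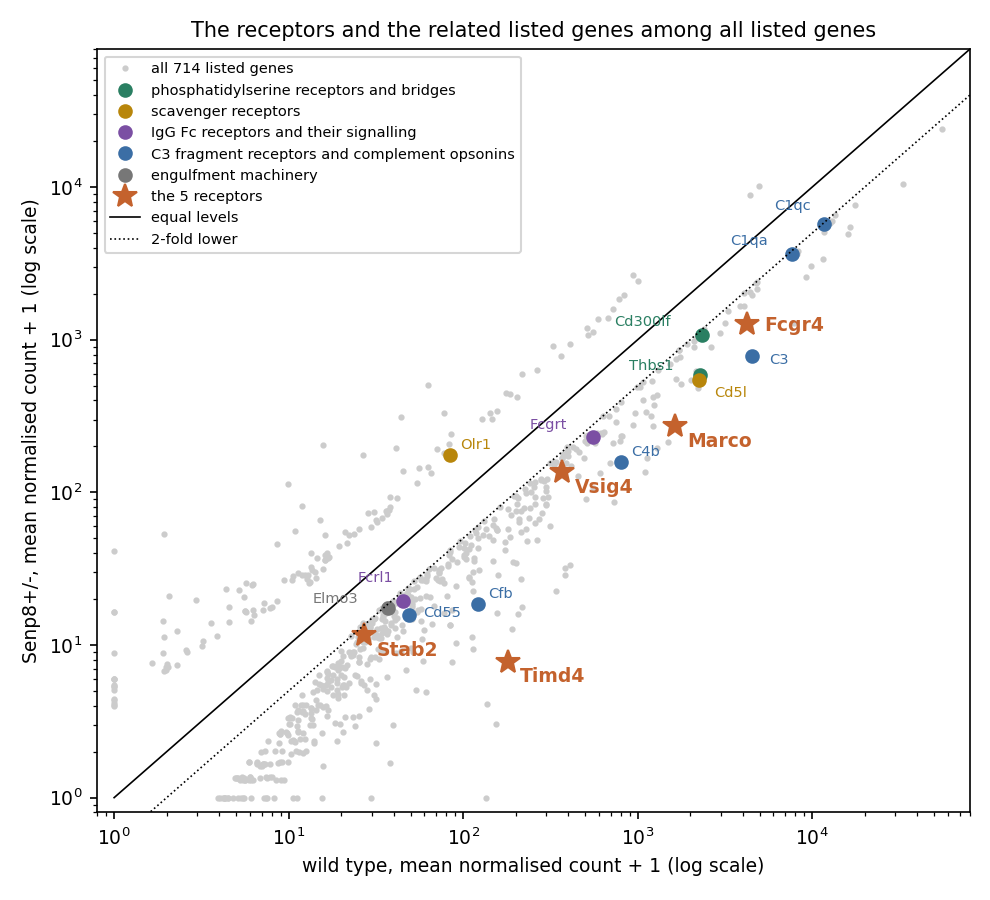
Mean normalised count + 1 in wild type (horizontal, log scale) against Senp8+/- (vertical, log scale) for the 714 listed genes (grey), the 5 receptors (stars) and listed genes of the 5 lists (coloured). Points below the solid line are lower in Senp8+/-, Olr1 alone of the coloured genes lies above it, and Timd4 is the receptor farthest from the line.

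Of 25 genes that mark macrophages resident in tissues, 10 were in the table, which holds selected genes only. By the authors' test 8 of the 10 fell, Timd4, Marco and Vsig4 among them, and by limma 4. Of all listed genes the authors' test called 33.9% lower, and the other 15 markers have no value here. The other 7 listed genes summed to between 1369 and 1755 normalised counts in Senp8+/- and between 3906 and 6338 in wild type. Cd5l and Siglec1 made up most of this sum. Siglec1 stood at 1418, 830 and 4258 in wild-type replicates 1, 2 and 3 and at 696, 724 and 440 in Senp8+/-. It fell by the authors' test but not by limma (adjusted p = 0.251). Adgre4, an adhesion receptor of the family of F4/80, fell from 136 ± 47.2 to 3.11 ± 1.89, 43.6-fold. Vcam1, an adhesion molecule, fell from 76.5 ± 17.3 to 24.4 ± 2.73, and Slc40a1, the iron exporter ferroportin, from 74.4 ± 12.1 to 25.9 ± 12.5 by the authors' test (limma adjusted p = 0.0520 and 0.0909). Id3 lay the other way without being called, with 76.5 ± 40.6 in wild type against 330 ± 237 in Senp8+/-. Gata6 was not called either. The labels describe cultured marrow cells, and the part of resident-type cells in these values was not tested.

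The markers of other cell types that were in the table lay lower in Senp8+/-, except that Flt1 and Pdgfra turned sign, to 0.040 and 0.027 on the log2 scale, under scaling to a common median. The other markers of these lists are not among the listed genes used here, so the lists as wholes cannot be described. Of 19 endothelial markers, Stab2 among them, 4 were in the table and Pecam1 and Eng fell. Without Stab2, the 3 summed to between 422 and 639 normalised counts in Senp8+/- and between 807 and 1997 in wild type. Eng, at 331 ± 75.8 in Senp8+/- and 966 ± 383 in wild type (SD, n = 3 each), made up most of this sum. limma gave Eng an adjusted p of 0.0615. Flt1, which made up most of the rest, overlapped between the genotypes and was not called. Pecam1 stood at 17.8, 16.9 and 25.3 in wild-type replicates 1, 2 and 3 and at 6.18, 0.930 and 0 in Senp8+/- replicates 1, 2 and 3, so most of its remaining signal was in 1 library. Wild-type replicate 2, the lowest wild-type library for Stab2, was also the lowest for this sum. The 9 listed of 17 T and NK cell markers summed to between 268 and 311 in Senp8+/- and between 1183 and 1517 in wild type, with Gzma and Ncr1 at 0 reads in all Senp8+/- libraries. The 3 listed of 16 neutrophil markers summed to between 358 and 561 and between 1187 and 1566, with Retnlg at 0 reads in all Senp8+/- libraries. The 2 listed of 14 dendritic cell markers summed to between 177 and 276 in Senp8+/- and between 545 and 786 in wild type. Most of the T and NK cell sum was Ccl5, at 269 ± 18.4 in Senp8+/- and 1225 ± 204 in wild type (SD, n = 3 each). Csf3r, at 434 ± 109 and 1285 ± 232, made up most of the neutrophil sum. Ccl22, at 209 ± 46.6 and 566 ± 133, made up most of the dendritic cell sum. The 8 listed of 15 stromal markers summed to between 397 and 715 in Senp8+/- and between 706 and 1788 in wild type and overlapped. The 1 listed of 8 B cell markers, Cd79b, lay between 10.7 and 12.4 in Senp8+/- and between 25.3 and 46.5 in wild type. The part of these cells in the receptor values was not tested.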

How the data were processed

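The 6 libraries were grouped by their titles and genotype labels. The submitters' processing notes name HISAT2 (2.0.5) and, with no stated role, featureCounts (1.5.0-p3). The build, annotation, counting settings and the authors' test are not given in the sources. The deposited signal is a read count over the size factor of its library, as a check of the values showed: 100% were whole multiples of 1 step (tolerance 1e-06 of a read), so whole reads were recovered. Log2 fold changes, p-values and adjusted p-values are those deposited by the authors. The table lists 714 genes selected on p and fold. The ratio of adjusted to raw p for the first gene gave 14694 tested genes. Of 714 gene identifiers 714 were in GENCODE M21 (GRCm38), 685 at identical positions, so positions are named as GRCm38. Gene lengths, another number deposited by the authors, equalled the exon union for the 5 receptors.

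limma 3.58.1 (R 4.3.3) was fitted to log2(value + 1) with genotype as the only term and a mean-variance trend. Benjamini-Hochberg adjustment ran over 14694 genes, which assumes larger p-values for unlisted genes, with a threshold of 0.05. Listing also needed a 2-fold difference, so this assumption may not hold. Where unlisted genes had smaller p-values, the adjusted p-values given here are too large. Alternatives were edgeR 4.0.16 and DESeq2 1.42.0 on recovered reads, other pseudocounts, a filter, other scalings, a replicate block and each library left out. limma, edgeR and DESeq2 all estimated variances from the listed genes only, which were selected for a small p in these libraries. Their SEs and p-values may therefore be too small. The receptors and lists were chosen with earlier results of these data known. Named genes are the 5 receptors, up to 4 listed genes of smallest p of each ligand list, marker genes, and the 2 nearest in pattern to each receptor. C1qa, C1qc, Id3, Gata6, Siglec1, Ddx3y, Eif2s3y and Uty were named after their values were seen. Columns of samples outside this series numbered 0. Protein sequences were not used here. Total depths are unknown, so a share of all reads is not given. Intervals cover counting error only.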

Additional observations from a re-analysis of the deposited data

How the results depend on the processing

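In sign, all 5 receptors stayed lower in Senp8+/- under every alternative run. Scaling all libraries to 1 common median of listed genes, most of which were selected for being lower, moved the median log2 difference of all listed genes by 0.956 and turned the limma calls from 84.7% lower to 21.9% lower. Under this scaling Timd4 and Marco stood at -3.61 and -1.56. Vsig4 and Stab2 stood at -0.31 ± 0.40 and -0.19 ± 0.43 (SE), differences smaller than their SEs. With a pseudocount of 5 Timd4 stood at -3.97. Fcgr4 stood at -0.66 under the common median and was no longer past the threshold. DESeq2 on recovered reads placed Vsig4 past it, at -1.45. The authors' deposited log2 fold change of Vsig4 was also -1.45, from the same reads and size factors. The DESeq2 result is therefore no independent support for their call. With each library left out, the log2 differences ran from -4.80 to -4.41 for Timd4, -2.79 to -2.37 for Marco, -2.03 to -1.44 for Fcgr4, -1.66 to -0.92 for Vsig4 and -1.53 to -0.89 for Stab2. The number of receptors past the limma threshold then ran from 1 without wild-type replicate 1 to 4 without wild-type replicate 3, against 3 with all libraries, and the cause was not tested. Of all listed genes limma called 149 lower and 27 higher, DESeq2 197 and 38, and limma 7 and 4, 96 and 16, and 154 and 27 when wild-type replicates 1, 2 and 3, in this order, were left out. With Senp8+/- replicates 1, 2 and 3 left out, in this order, limma called 82 and 18, 32 and 5, and 75 and 12. The cause was not tested. Without wild-type replicate 2 the differences Stab2 minus Fcgr4 and Stab2 minus Vsig4 turned from 0.53 and 0.18 to -0.087 and -0.62. Over the libraries left out they ran up to 1.15 and 0.77.

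The deviations of same-numbered libraries from their genotype means correlated at 0.0101, 0.0441 and -0.243 over the 714 genes. These correlations showed no pairing by replicate number but cannot exclude it. The Timd4, Marco, Stab2, Fcgr4 and Vsig4 differences, -4.56, -2.57, -1.14, -1.67 and -1.32, cannot change with a replicate block in this balanced layout. With the block 3 receptors passed the limma threshold as before, and 145 and 29 listed genes were called lower and higher. Depth limits Timd4 in Senp8+/- (20 reads over 3 libraries) and Stab2 (32 and 83 reads in Senp8+/- and wild type).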
